A study of Mus musculus with 30 samples.

Results

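A set of 10 genes of the connective-tissue matrix was followed through mouse osteoclast cultures: the small leucine-rich proteoglycans decorin (Dcn), lumican (Lum), biglycan (Bgn) and osteoglycin (Ogn), the matricellular proteins periostin (Postn), osteonectin (Sparc) and thrombospondins 1 and 2 (Thbs1, Thbs2), the microfibril protein Mfap5 and the collagen-binding integrin subunit Itga11. These 10 genes, of the 45706 in the tables, are a listed set of stromal matrix genes found in each of the 5 tables, with Ensembl identifiers turned into symbols by GENCODE M21. They were chosen by their role and with earlier results of these same libraries known, among them the behaviour of Ogn, Postn, Thbs2 and Itga11 in the comparisons between wild-type cultures at 2 days and with large cells. Those comparisons are therefore given below as descriptions without p-values, and the p-values of the others are not independent evidence.

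Bone marrow-derived macrophages of C57BL/6J mice were turned into osteoclasts, the multinucleated cells that resorb bone, on slices of bone in every group with M-CSF at 25 ng/ml and RANKL at 100 ng/ml. Wild-type mice were 1, 6 or 20 months old, and mice without Terc (Terc-/-), the RNA template of telomerase, were 1 or 6 months old. Wild-type cultures were taken at 2 days (6 and 20 months) or when large multinucleated cells had appeared (1, 6 and 20 months), and Terc-/- cultures at the large-cell stage (1 and 6 months). The number of days to the large-cell stage is not in the labels. A further 3 groups of the same labelled stage carry an extra word in their titles whose meaning the labels do not give: 519 for Terc-/- at 1 and 6 months, and gaiwei for wild type at 1 month. Each of the 10 groups had 3 libraries, 30 in all, and nothing in the labels says whether they came from separate animals, so the p-values measure only how these samples vary among themselves, and that variation may be technical.

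Small leucine-rich proteoglycans are short core proteins of leucine repeats that bind collagen fibrils, and decorin and biglycan carry glycosaminoglycan chains and also bind TGF-beta. Matricellular proteins lie in the matrix without building it: they bind collagen, growth factors and cell-surface receptors and tune how cells attach. In bone these genes are known mainly from osteoblasts, fibroblasts and other stromal cells rather than from cells of the macrophage line, from which osteoclasts arise.

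The tables hold TPM, so levels of different genes are compared per length, and read depth cannot be recovered from them. Libraries held 11270 to 12937 genes at 1 TPM or more. Terc was listed at 0 in 12 of 12 Terc-/- libraries and also in 12 of 15 libraries of unmarked wild type, which leaves the genotype labels unchecked by it. Xist read 46.6 to 84.1 TPM in all 3 libraries of unmarked 1-month wild type, and the other 27 did not pass 0.254 TPM, so that in every comparison with the unmarked 1-month wild type this difference and the labelled one cannot be told apart. One library, the second replicate of wild-type large-cell cultures at 6 months, correlated with the others of its group at a mean of 0.910, against 0.934 to 0.990 for the other 29 libraries, and values without it are given where they differ. The 10 listed osteoclast markers (Acp5, Ctsk, Calcr and others) summed to 4617 to 28114 TPM in the unmarked large-cell libraries, to 334 to 789 TPM at 2 days, and to 667 to 2158 TPM in the 519 and gaiwei libraries, whose labels name the large-cell stage. The macrophage list (Csf1r, Adgre1 and others) lay at 16019 to 71946 TPM throughout.

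The 14 listed stromal and osteoblast markers are given here to stand beside the values below. Their sum was 501 to 1978 TPM for unmarked wild type at 1 month, 591 to 994 TPM in the 6-month and 3020 to 3721 TPM in the 20-month wild-type large-cell libraries. It was 1697 to 1979 TPM at 6 months and 741 to 940 TPM at 20 months in the 2-day libraries, 88.4 to 170 TPM and 186 to 702 TPM in unmarked Terc-/- at 1 and 6 months, 56.1 to 72.2 TPM and 205 to 252 TPM in the 519 libraries, and 80.6 to 107 TPM in the gaiwei libraries. Col1a1, Col1a2 and Col3a1, matrix genes like the members, are on this list and reached 1634, 1694 and 283 TPM in unmarked wild-type libraries. Much of the sum is therefore collagen RNA. The collagens Col1a1 and Col1a2 were present in every library. So was Runx2, also on this list, at 5.75 to 22.4 TPM in unmarked wild type and 1.71 to 12.4 TPM in Terc-/- and gaiwei libraries. Bglap, which defines mature osteoblasts, was at 0 in all 30, and Alpl and Sp7 did not pass 0.776 and 0.432 TPM. The part of stromal cells in the results was not tested, and in bulk RNA fewer cells of a type and less RNA per cell cannot be told apart.

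Promoters are shown for the 3 members with a RefSeq promoter entry whose group means spanned the widest range. An entry was matched for 6 members (7 entries in all), and Dcn, Lum, Thbs1 and Mfap5 had none. Each line gives the 250 bases before the annotated start on the gene's strand, from RefSeq's GRCm38.p6, for Postn at chr3:54360857-54361106, plus strand, Ogn at chr13:49607765-49608014, plus strand, and Thbs2 at chr17:14694263-14694512, minus strand. Capitals mark matches to TATAAA or CATTCC on either strand.
Postn: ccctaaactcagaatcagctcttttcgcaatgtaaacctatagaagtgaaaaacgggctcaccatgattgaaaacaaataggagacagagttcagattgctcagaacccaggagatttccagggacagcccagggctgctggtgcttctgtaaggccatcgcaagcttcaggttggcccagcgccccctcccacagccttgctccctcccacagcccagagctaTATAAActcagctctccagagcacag
Ogn: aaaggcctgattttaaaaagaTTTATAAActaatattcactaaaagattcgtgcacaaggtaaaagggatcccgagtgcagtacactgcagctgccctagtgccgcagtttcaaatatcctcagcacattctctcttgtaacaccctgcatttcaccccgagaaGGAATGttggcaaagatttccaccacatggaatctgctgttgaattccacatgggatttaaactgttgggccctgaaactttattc
Thbs2: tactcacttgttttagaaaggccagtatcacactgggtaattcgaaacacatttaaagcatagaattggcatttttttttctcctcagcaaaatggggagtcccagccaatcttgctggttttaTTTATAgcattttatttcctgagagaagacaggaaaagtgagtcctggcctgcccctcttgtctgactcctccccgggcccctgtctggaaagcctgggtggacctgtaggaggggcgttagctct

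Positions are counted back from the start, with the last base before it as -1. The Postn entry shown was picked because it held TATAAA, so that match was fixed by the choice. It lay on the gene strand from -26 to -21. In Ogn the same motif lay far upstream, on the gene strand from -227 to -222 and, overlapping it, on the opposite strand from -229 to -224, and Thbs2 held it on the opposite strand from -126 to -121. The window searched ran from 250 bases before the start to 50 bases after it, and of 32851 promoter entries 13.62% held TATAAA in it. CATTCC, the MCAT element read by TEAD factors, was present in Ogn on the opposite strand from -86 to -81 and in 14.66% of entries. No member's window held TGANTCA, the AP-1 motif (7.81% of entries), or a CArG box (1.63%). These are matches of letters only.

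Across the 30 libraries Sparc had the highest mean of the members (980 TPM), followed by Thbs1 (895 TPM), Bgn (592 TPM), Postn (163 TPM), Thbs2 (55.5 TPM), Dcn (40.1 TPM), Mfap5 (16.1 TPM), Itga11 (8.89 TPM), Ogn (5.57 TPM) and Lum (0.399 TPM). Lum was under the mean of 1 TPM needed for testing, so 9 of the 10 were tested. Together the 10 genes made up 0.580 to 0.724% of all TPM in the 20-month wild-type large-cell libraries and 0.617 to 0.702% in the 6-month 2-day libraries. In the 1-month Terc-/- libraries with 519 they made up 0.0321 to 0.0402%. Their ranks varied by group: Sparc led in 20-month wild-type large-cell cultures, Thbs1 at 6 months and 2 days, and in 2 of 3 gaiwei libraries Dcn lay close to Bgn, which far exceeded it in every unmarked wild-type group.

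**Figure D1:**
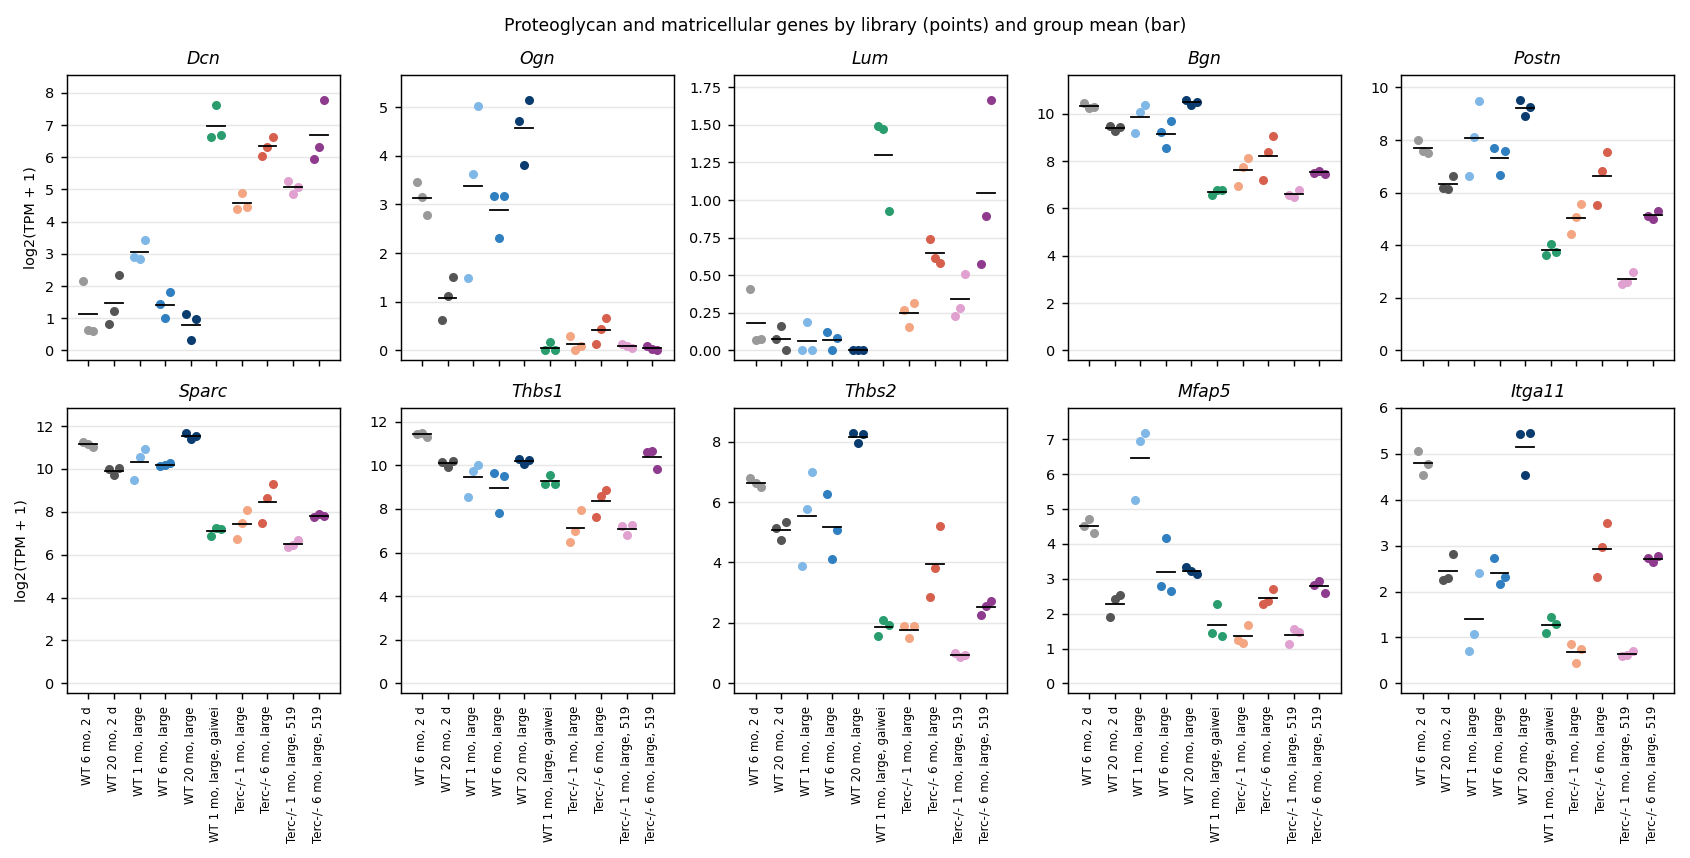
Level of each of the 10 genes as log2(TPM + 1), 1 point a library and a bar at the mean of each group of 3, with the 5 unmarked wild-type groups (WT, ages in months, mo) at the left of each panel. Bgn, Sparc, Postn and Thbs2 were highest in the 20-month wild-type large-cell group and lowest in 1-month Terc-/- with 519, whereas Dcn and Lum were highest in the gaiwei group.

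Decorin, which binds collagen fibrils and holds TGF-beta in the matrix, was scarce in unmarked wild-type cultures and abundant where Bgn and Ogn were low. Dcn lies at chr10:97479609-97518143, plus strand, in GRCm38. In wild-type large-cell cultures it read 6.47, 6.12 and 9.85 TPM at 1 month, 1.69, 1.03 and 2.51 TPM at 6 months and 1.18, 0.248 and 0.951 TPM at 20 months. In 2-day cultures it read 3.45, 0.540 and 0.529 TPM at 6 months and 0.784, 1.34 and 4.08 TPM at 20 months. Unmarked Terc-/- cultures read 20.1, 28.3 and 20.7 TPM at 1 month and 65.3, 78.8 and 98.2 TPM at 6 months. No library of these Terc-/- groups came as low as the highest library of any unmarked wild-type group. The 519 libraries read 37.4, 27.8 and 32.9 TPM at 1 month and 60.1, 77.9 and 220.1 TPM at 6 months, and the gaiwei wild-type libraries 98.2, 196 and 102 TPM. The 12 Terc-/- and 3 gaiwei libraries together lay at 20.1 to 220 TPM, and the 15 unmarked wild-type libraries at 0.248 to 9.85 TPM. In the order of group means, the first 3 groups (gaiwei, then Terc-/- at 6 months with and without 519) overlapped in range, the 1-month Terc-/- pair overlapped each other, and the 1-month wild type stood alone above the other 4 wild-type groups, which overlapped.

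Dcn was 1.54 ± 0.43 higher (log2 difference ± standard error, limma, 3 libraries a group) in Terc-/- than in wild type at 1 month (adjusted p = 0.00824) and 4.82 ± 0.43 higher at 6 months (adjusted p = 2.97e-08). Differences are on the scale of log2(scaled TPM + 1), which understates those of low genes. The genotype difference was itself larger at 6 months, by 3.28 ± 0.60 (adjusted p = 0.00185), a term that includes the 1-month wild type with its high Xist. Between 1 and 6 months Dcn rose by 1.76 ± 0.43 in unmarked Terc-/- (adjusted p = 0.0161) and changed by -1.52 ± 0.43 in wild type (adjusted p = 0.0265). The Terc-/- call was lost without 1-month replicate 1 or 4 or 6-month replicate 4 (adjusted p = 0.0629 to 0.118, and 0.0127 to 0.118 over the alternatives). The wild-type call was lost without 1-month replicate 4 (adjusted p = 0.101) or 6-month replicate 2 (adjusted p = 0.0823), within 0.023 to 0.128 over the alternatives. Gaiwei libraries were 4.47 ± 0.43 above the unmarked 1-month wild type (adjusted p = 7.76e-09). The 519 and unmarked Terc-/- libraries did not pass the test, at 0.95 ± 0.43 for 1 month and 0.62 ± 0.43 for 6 months (adjusted p = 0.0898 and 0.312).

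Lumican, a keratan sulphate proteoglycan that spaces collagen fibrils, is the next gene on the chromosome (chr10:97565128-97572703, plus strand), 47.0 kb beyond the end of Dcn. It followed a like order at a far lower level. Lum read 1.82, 1.77 and 0.906 TPM in the gaiwei libraries, 0.487, 0.856 and 2.18 TPM in 6-month Terc-/- with 519 and 0.674, 0.529 and 0.497 TPM without it. It lay at 0 to 0.329 TPM in the 15 unmarked wild-type libraries, 7 of which were at 0, the 3 20-month large-cell libraries among them. The first 3 places in the order of group means were held by the same groups as for Dcn. The further proteoglycan genes of this cluster, Kera and Epyc, were at 0 in 28 and 30 libraries.

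**Figure D2:**
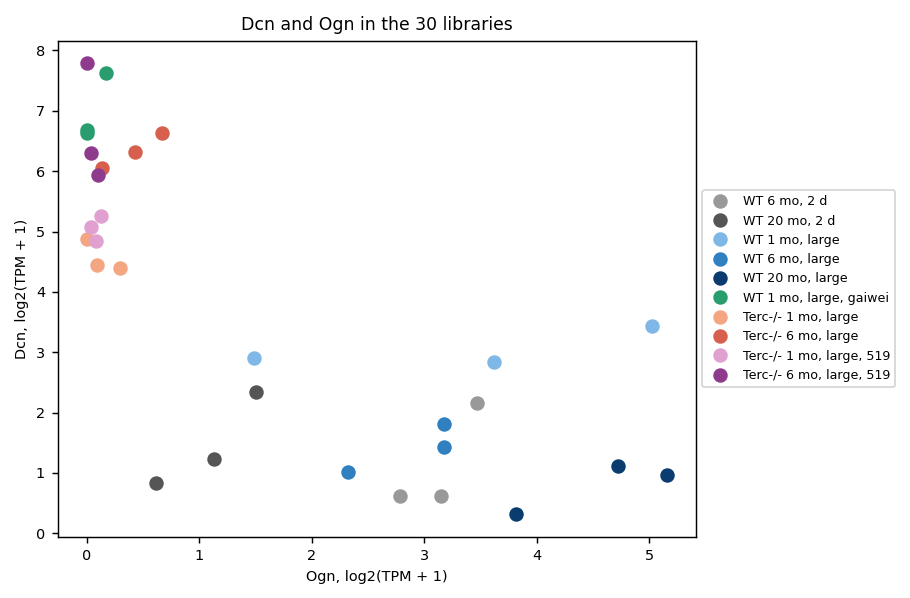
Dcn against Ogn in each of the 30 libraries, both as log2(TPM + 1), coloured by group. The 15 unmarked wild-type libraries lie low on Dcn (at most 9.85 TPM), and the 15 Terc-/- and gaiwei libraries lie at the left edge, with Ogn at most 0.592 TPM.

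Osteoglycin (Ogn, also called mimecan; chr13:49608046-49624501, plus strand), a proteoglycan of bone and connective tissue, was nearly absent from every Terc-/- and gaiwei library. It read 1.80, 11.3 and 31.6 TPM in 1-month, 8.05, 4.0 and 8.02 TPM in 6-month and 25.5, 13.1 and 34.6 TPM in 20-month wild-type large-cell cultures. At 2 days it read 10.1, 7.85 and 5.89 TPM at 6 months and 0.535, 1.18 and 1.84 TPM at 20 months. The 12 Terc-/- libraries lay at 0 to 0.592 TPM and the gaiwei libraries at 0, 0.128 and 0 TPM, with 4 of these 15 at 0. The highest of them, a 6-month Terc-/- library, lay above the lowest wild-type library, a 20-month 2-day library at 0.535 TPM. Within the 1-month wild type Ogn ran from 1.80 to 31.6 TPM, a spread that took in the whole 6-month range. Ogn was -3.15 ± 0.45 in Terc-/- against wild type at 1 month (adjusted p = 1.42e-05) and -2.53 ± 0.45 at 6 months (adjusted p = 0.000187), and the difference between these did not pass the test (0.61 ± 0.64, adjusted p = 0.622). In the gaiwei libraries it fell by 3.18 ± 0.45 on the log2 scale against unmarked wild type (adjusted p = 2.92e-06). Its neighbours of the same family were near the floor: Omd, 15.2 kb upstream, reached 0.546 TPM, Aspn 2.61 TPM and Ecm2 0.495 TPM in their highest libraries.

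Biglycan (Bgn; chrX:73483602-73495933, plus strand), the X-linked relative of decorin, ran the other way from it over the 30 libraries (Pearson's r = -0.81). Within groups it did not, with r = 0.31 for the deviations from group means. Bgn read 576, 1076 and 1329 TPM in 1-month, 598, 373 and 836 TPM in 6-month and 1550.3, 1306 and 1446 TPM in 20-month wild-type large-cell cultures. In 2-day cultures it read 1405, 1201 and 1239 TPM at 6 months and 725, 625 and 704 TPM at 20 months. In Terc-/- it read 122, 217 and 283 TPM at 1 month and 146, 329.9 and 534 TPM at 6 months. At 1 month the genotypes did not overlap, whereas at 6 months the highest Terc-/- library passed the lowest wild-type library, replicate 2. The 519 libraries read 94.1, 87.5 and 107 TPM at 1 month and 180.2, 191 and 177 TPM at 6 months, and gaiwei libraries 94.1, 107 and 108 TPM. In the order of group means each wild-type group overlapped the next down to 6-month Terc-/-. The order of neighbouring groups is therefore not fixed by these libraries. The 20-month large-cell and 6-month 2-day groups nonetheless lay wholly above the 20-month 2-day and 6-month large-cell groups. Bgn was -2.22 ± 0.32 in Terc-/- at 1 month (adjusted p = 1.42e-05) and -1.08 ± 0.32 at 6 months (adjusted p = 0.0129). The latter call was lost without 6-month wild-type replicate 4 (adjusted p = 0.0711) or 6-month Terc-/- replicate 1 (adjusted p = 0.149), within a range over the alternatives of 0.000387 to 0.334. Bgn stood to Dcn as 0.549 to 1.06 in TPM in the gaiwei libraries and as 1319 to 5272 in the 20-month wild-type large-cell libraries.

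Sparc (chr11:55394500-55423183, minus strand), a calcium- and collagen-binding protein abundant in mineralising bone, kept close to Bgn within each library. It read 726, 1501 and 1926 TPM in 1-month, 1123, 1144 and 1251 TPM in 6-month and 3311, 2652 and 2931 TPM in 20-month wild-type large-cell cultures. At 2 days it read 2423, 2319 and 2080.2 TPM at 6 months and 1026, 851 and 1042 TPM at 20 months. These are among the most abundant transcripts measured: over 30 libraries Sparc ranked 160th of all genes by mean TPM, Thbs1 177th and Bgn 246th. Terc-/- cultures read 104, 177 and 269.9 TPM at 1 month and 176, 399 and 627 TPM at 6 months. With 519 they read 79.9, 86.4 and 100.4 TPM and 213, 239 and 220.1 TPM, and gaiwei libraries read 118, 149 and 146 TPM. The lowest unmarked wild-type library, at 726 TPM, lay above the highest Terc-/- or gaiwei library, at 627 TPM. Sparc was -2.87 ± 0.34 in Terc-/- at 1 month (adjusted p = 1.32e-06) and -1.86 ± 0.34 at 6 months (adjusted p = 0.000226). The ratio of Sparc to Bgn moved over a narrow range, from a median of 0.851 in 1-month Terc-/- to 2.03 in 20-month wild-type large-cell libraries, with a single library at 3.07, replicate 2 of the 6-month wild type.

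Periostin (Postn; chr3:54361109-54391037, plus strand), a matricellular protein of periosteum and ligament that binds integrins and collagen, was lower with 519 in the titles at both ages. It read 99.4, 276 and 723 TPM in 1-month, 206, 102 and 193 TPM in 6-month and 741, 483 and 604 TPM in 20-month wild-type large-cell cultures. In 2-day cultures it read 252, 192 and 182 TPM at 6 months and 71.6, 70.0 and 97.5 TPM at 20 months. The 3 libraries of 1-month wild type ran from just below the 6-month range into the 20-month range. Terc-/- cultures read 20.3, 33.0 and 45.8 TPM at 1 month and 45.1, 111 and 185 TPM at 6 months. With 519 they read 4.82, 5.10 and 6.89 TPM and 34.0, 30.7 and 38.0 TPM, and gaiwei libraries read 11.4, 15.7 and 12.4 TPM. The 519 and unmarked libraries of the same age did not overlap at either age. Postn was -1.89 ± 0.44 with 519 at 1 month (adjusted p = 0.00157) and -1.21 ± 0.44 at 6 months (adjusted p = 0.0406). The 6-month value lost its call without any single library of those groups other than Terc-/- replicate 1, with adjusted p of 0.0664 to 0.263 in those fits and 0.00357 to 0.263 over the alternatives. Against wild type Postn was -3.04 ± 0.44 in Terc-/- at 1 month (adjusted p = 1.61e-05) and did not pass the test at 6 months (-0.83 ± 0.44, adjusted p = 0.164), where the ranges overlapped.

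Thrombospondin 1 (Thbs1; chr2:118111876-118127133, plus strand), which activates latent TGF-beta and binds CD36 and CD47, took an order of its own. It was highest at 6 months and 2 days, at 2758, 2892 and 2533 TPM, and no other group reached those values. It read 1125, 964 and 1189 TPM at 20 months and 2 days, and 378, 863 and 1026, 798, 221 and 724 and 1245, 1071 and 1215 TPM in wild-type large-cell cultures of 1, 6 and 20 months. Replicate 2 gave the lowest of the 6-month values. Terc-/- cultures read 88.2, 125 and 247 TPM at 1 month and 196, 388 and 472 TPM at 6 months. With 519 the 1-month libraries read 148, 110.5 and 150.4 TPM and the 6-month libraries 1538, 1613 and 915 TPM, and gaiwei libraries read 559, 741 and 555 TPM. The 6-month 519 group was thus second in the order of means, overlapping the 20-month wild-type groups. Thbs1 rose by 2.28 ± 0.35 with 519 at 6 months (adjusted p = 2.12e-05) and did not pass the test at 1 month (0.42 ± 0.35, adjusted p = 0.379). Between ages within the 519 libraries it rose by 3.09 ± 0.35 (adjusted p = 1.36e-06). The gaiwei libraries, in which the other tested matricellular members were far lower than in unmarked 1-month wild type, did not differ past the threshold in Thbs1 (0.38 ± 0.35, adjusted p = 0.392).

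Thrombospondin 2 (Thbs2; chr17:14665500-14694235, minus strand), a mesenchymal relative that shapes collagen fibrils and restrains vessel growth, spanned a range of group means second to that of Ogn. It read 13.7, 53.9 and 126 TPM in 1-month, 76.4, 16.5 and 32.8 TPM in 6-month and 314, 246 and 303 TPM in 20-month wild-type large-cell cultures. At 2 days it read 109, 97.5 and 88.8 TPM at 6 months and 34.0, 25.9 and 39.1 TPM at 20 months. The 20-month large-cell range lay clear of every other group. Terc-/- cultures read 2.76, 1.81 and 2.76 TPM at 1 month and 6.21, 13.1 and 35.7 TPM at 6 months. With 519 they read 0.990, 0.828 and 0.913 TPM and 3.79, 4.87 and 5.59 TPM, and gaiwei libraries read 1.96, 3.24 and 2.84 TPM. From the 20-month wild type to 1-month Terc-/- with 519 the group mean went from 287 to 0.910 TPM, a ratio of 316. Thbs2 was -3.73 ± 0.49 in Terc-/- at 1 month (adjusted p = 6.14e-06) and -1.32 ± 0.49 at 6 months (adjusted p = 0.0474). The 6-month call was lost without wild-type replicate 1 or 4 or Terc-/- replicate 1 or 2 (adjusted p = 0.0681 to 0.303), within a range over the alternatives of 0.00329 to 0.356.

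**Figure D3:**
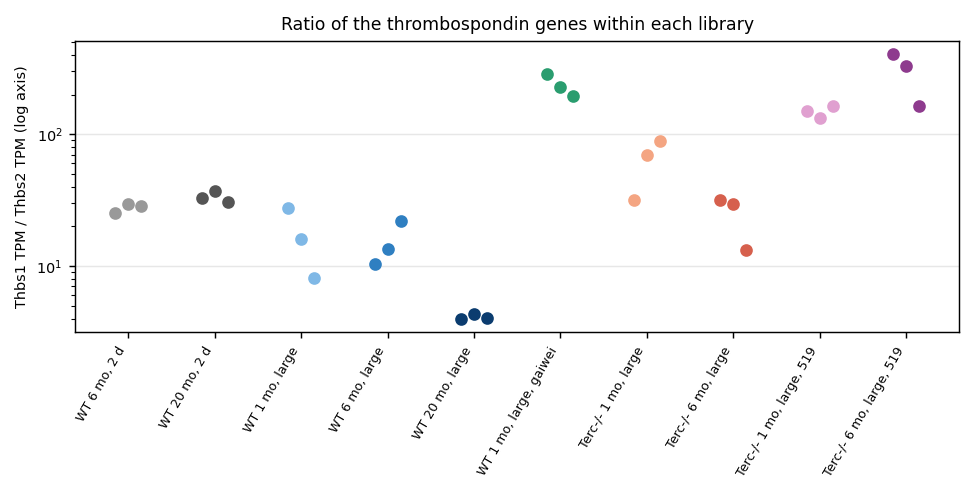
Thbs1 divided by Thbs2, both in TPM, in each of the 30 libraries (points, 3 a group) on a log axis. The ratio was 3.97 to 4.36 in 20-month wild-type large-cell libraries and 164 to 406 in 6-month Terc-/- libraries with 519.

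The ratio of the thrombospondins separated groups that either gene alone did not. Thbs1 exceeded Thbs2 by 3.97 to 4.36 times in 20-month wild-type large-cell libraries, 8.13 to 27.5 times in 1-month and 10.4 to 22.1 times in 6-month ones. At 2 days the ratio was 25.2 to 29.7 at 6 months and 30.4 to 37.2 at 20 months, close together although both genes were lower at 20 months. In unmarked Terc-/- it was 31.9 to 89.5 at 1 month and 13.2 to 31.6 at 6 months. The 519 libraries (134 to 165 at 1 month, 164 to 406 at 6 months) and the gaiwei libraries (196 to 286) lay above every unmarked library.

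Mfap5 (chr6:122505845-122529290, plus strand), a glycoprotein of elastic-fibre microfibrils, was the member that set the 1-month wild type apart. It read 37.2, 123 and 145 TPM there, against 5.87, 16.9 and 5.29 TPM at 6 months and 9.19, 8.37 and 7.75 TPM at 20 months in large-cell cultures. In 2-day cultures it read 21.7, 25.1 and 19.0 TPM at 6 months and 2.77, 4.31 and 4.81 TPM at 20 months. In the unmarked 1-month group, the one with high Xist, even the lowest library exceeded all 27 others. Terc-/- cultures read 1.37, 1.24 and 2.21 TPM at 1 month and 3.84, 4.18 and 5.48 TPM at 6 months, with 519 they lay at 1.20 to 6.65 TPM, and gaiwei libraries read 1.70, 3.85 and 1.55 TPM. Mfap5 was -5.05 ± 0.41 in Terc-/- against wild type at 1 month (adjusted p = 1.15e-08), the largest fitted difference of any member in the 15 comparisons. At 6 months the difference was -0.88 ± 0.41 and did not pass the test (adjusted p = 0.114), and the change between ages passed it (4.17 ± 0.58, adjusted p = 9.83e-05). That change includes the 1-month wild type with its high Xist.

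Itga11 (chr9:62677826-62783982, plus strand) encodes the alpha subunit of a fibroblast receptor for fibrillar collagen. It was the one tested member for which Terc-/- and wild type did not differ past the threshold at either age, with -0.66 ± 0.31 at 1 month (adjusted p = 0.108) and 0.41 ± 0.31 at 6 months (adjusted p = 0.324). It read 0.627, 1.11 and 4.32 TPM in 1-month, 5.67, 3.47 and 3.99 TPM in 6-month and 42.1, 22.3 and 43.0 TPM in 20-month wild-type large-cell cultures. At 2 days it read 32.2, 22.3 and 26.4 TPM at 6 months and 3.74, 3.92 and 6.02 TPM at 20 months. The 20-month large-cell and 6-month 2-day groups stood above the other 8 groups, which did not pass 10.3 TPM. Terc-/- cultures read 0.824, 0.357 and 0.685 TPM at 1 month and 3.95, 6.83 and 10.3 TPM at 6 months, and with 519 0.509, 0.540 and 0.629 TPM and 5.61, 5.22 and 5.85 TPM. Age separated the Terc-/- libraries without overlap, by 2.21 ± 0.31 in unmarked libraries (adjusted p = 6.68e-05) and 2.10 ± 0.31 with 519 (adjusted p = 2.94e-05). The labels 519 and unmarked differed by 0.14 ± 0.31 at 1 month and 0.03 ± 0.31 at 6 months (adjusted p = 0.761 and 0.953).

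Between 2 days and the large-cell stage of wild-type cultures 6 of the 9 tested members were higher with large cells at 20 months, and 3 were lower at 6 months. At 20 months Ogn (3.43 ± 0.45), Thbs2 (3.21 ± 0.49), Postn (3.03 ± 0.44), Itga11 (2.75 ± 0.31), Sparc (1.73 ± 0.34) and Bgn (1.19 ± 0.32) made up the 6, against 36.2% of all 12614 genes called in either direction and 18.7% called higher. At 6 months Thbs1 (-2.04 ± 0.35), Itga11 (-2.02 ± 0.31) and Bgn (-0.77 ± 0.32) made up the 3, against 49.8% of all genes called and 25.1% called lower. Itga11 and Bgn were in both sets, with opposite signs, while Ogn (0.09 ± 0.45) and Postn (0.02 ± 0.44) lay near 0 at 6 months. The change from 2 days to large cells was higher at 20 than at 6 months for 8 of 9 members, with 25.0% of all genes called and 12.4% called higher. It differed most for Itga11 (4.77 ± 0.43) and Thbs2 (4.30 ± 0.70), and not past the threshold for Dcn (-1.03 ± 0.60). These counts belong to the comparisons known when the genes were chosen, so nothing is read from them. The count of 8 was the same without any single library, the count of 6 was 6 or 7, and the count of 3 was 2 or 3.

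**Figure D4:**
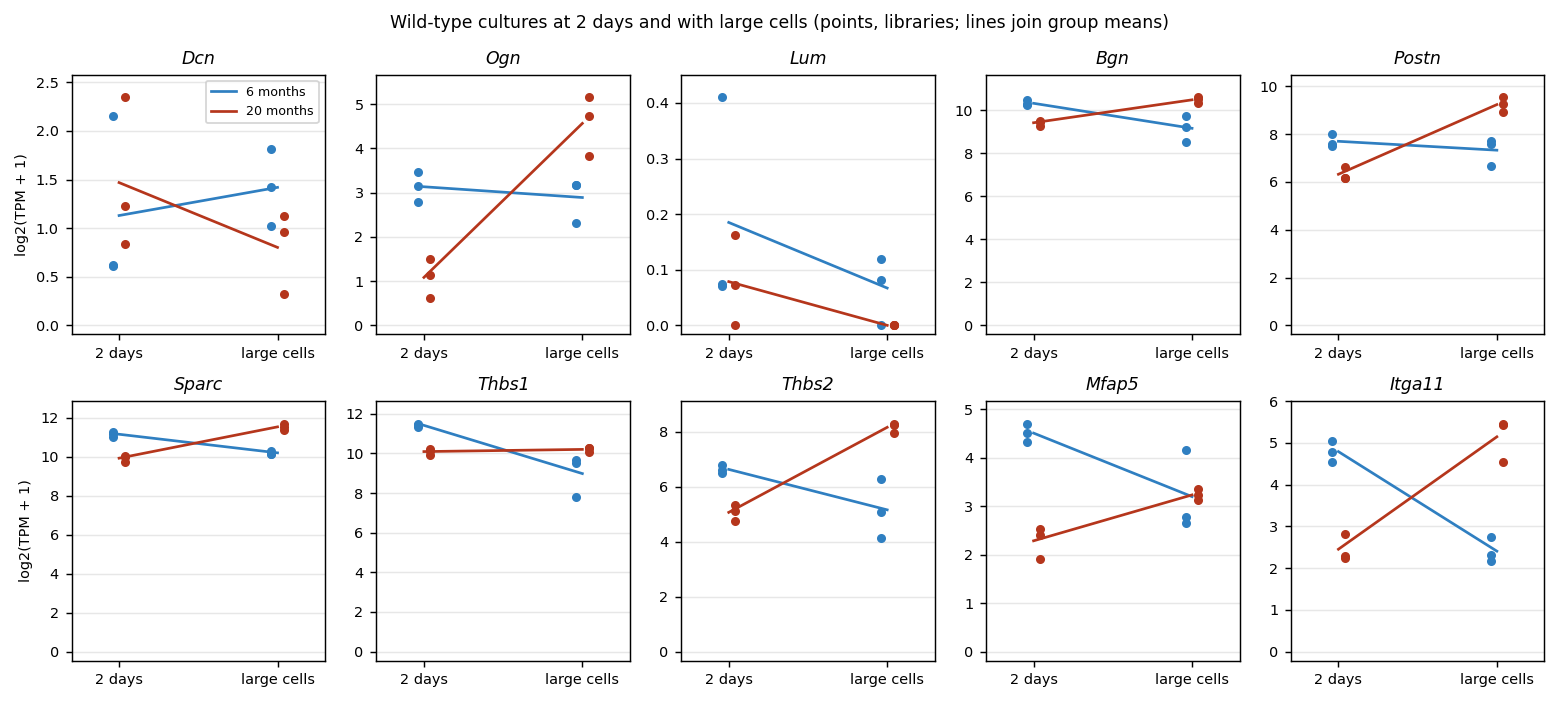
The 10 genes as log2(TPM + 1) in wild-type cultures at 2 days and with large cells, at 6 months (blue) and 20 months (red), with a point for each of 3 libraries and lines joining group means. For Ogn, Postn, Thbs2 and Itga11 the 20-month line climbs while the 6-month line is level or falls.

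At 2 days the 20-month cultures began lower. Mfap5 (-2.18 ± 0.41), Itga11 (-2.30 ± 0.31), Ogn (-1.93 ± 0.45), Thbs2 (-1.58 ± 0.49), Postn (-1.40 ± 0.44), Thbs1 (-1.34 ± 0.35), Sparc (-1.25 ± 0.34) and Bgn (-0.93 ± 0.32) were lower than at 6 months, and Dcn was 0.29 ± 0.43. These 8 were the members called, beside 17.3% of all genes called and 8.78% called lower. Their ranges in the 2 groups did not overlap, but this was not counted over all genes, so nothing is read from it. These 2-day libraries also entered the comparisons known when the genes were chosen, so nothing is read from the count. The count of 8 fell to 4 without 20-month replicate 3 and to 5 without 20-month replicate 2 or any one of the 6-month libraries. Marker lists differed in the same comparison. The smooth-muscle and pericyte markers (Acta2, Tagln, Myh11, Cnn1, Rgs5 and Mcam) summed to 8350 to 9592 TPM at 6 months against 2541 to 3238 TPM at 20 months. The stromal sum given above differed in the same sense, but of 10 tested stromal markers only 4 were lower, and 6 were not called. None of 10 osteoclast markers was lower while 6 were higher. The part of these lists was not tested.

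Among wild-type large-cell cultures, most members were higher at 20 than at 6 months. Thbs2 rose by 2.72 ± 0.49 (adjusted p = 0.000406), Itga11 by 2.47 ± 0.31 (adjusted p = 4.94e-06) and Postn by 1.62 ± 0.44 (adjusted p = 0.00983). Ogn (1.41 ± 0.45, adjusted p = 0.0235), Sparc (1.04 ± 0.34, adjusted p = 0.0251) and Bgn (1.03 ± 0.32, adjusted p = 0.0199) also rose, which makes 6 of 9 tested against 27.6% of all genes called and 12.7% called higher. Thbs1 was 0.93 ± 0.35 (adjusted p = 0.0519), and Dcn (-0.74 ± 0.43) and Mfap5 (-0.24 ± 0.41) lay on the other side of 0 without passing the test. The median over the 9 was 1.04, against 0.02 over all genes. These large-cell libraries also entered the comparisons known when the genes were chosen, with Ogn, Postn, Thbs2 and Itga11 among the genes known. The count and the p-values are therefore given as a description. The count fell to 3 without 20-month replicate 1 and was 4 without 6-month replicate 2, where Bgn and Ogn lost their calls (adjusted p = 0.0749 and 0.0835). Without 20-month replicate 4 those of Ogn and Sparc were lost (adjusted p = 0.109 and 0.057), and without 6-month replicate 1 that of Sparc (adjusted p = 0.0597). Stromal markers moved in the same sense, with 5 of 10 tested higher and none lower (Col1a1 1.87 ± 0.36, Col1a2 1.91 ± 0.37, Col3a1 1.94 ± 0.44), while the smooth-muscle list had no call in either direction among 5 tested.

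Against the 1-month wild type the members divided. From 1 to 20 months Itga11 (3.61 ± 0.31, adjusted p = 7.49e-09), Thbs2 (2.49 ± 0.49, adjusted p = 0.000697) and Sparc (1.07 ± 0.34, adjusted p = 0.0231) rose, and Mfap5 (-3.33 ± 0.41, adjusted p = 2.52e-06) and Dcn (-2.26 ± 0.43, adjusted p = 0.000427) fell, 5 of 9 against 22.2% of all genes. The Sparc call was lost without 1-month replicate 1 or 20-month replicate 1 or 4 (adjusted p = 0.0542 to 0.154), within 0.00477 to 0.154 over the alternatives. From 1 to 6 months Mfap5 fell (-3.10 ± 0.41, adjusted p = 2.29e-05), Dcn fell (-1.52 ± 0.43, adjusted p = 0.0265) and Itga11 rose (1.14 ± 0.31, adjusted p = 0.0204), 3 of 9 against 9.58% of all genes. Without 6-month replicate 2 the last count was 1, Mfap5 alone, and the Itga11 call was also lost without 1-month replicate 1 or 3 (adjusted p = 0.0644 and 0.11). With only the 2 groups in the fit it was 0 by limma, with 3 at an unadjusted p under 0.05. In both comparisons the age difference and the difference in Xist cannot be told apart.

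Terc-/- large-cell cultures held less of 7 of the 9 tested members than wild type at 1 month. At that age 7 of 9 fell, namely Mfap5, Thbs2 (-3.73 ± 0.49), Ogn, Postn, Sparc, Thbs1 (-2.27 ± 0.35, adjusted p = 3.46e-05) and Bgn, Dcn rose, and Itga11 did not pass the test, against 30.9% of all genes called and 15.5% called lower. The median over the 9 was -2.87, against 0.00 over all genes, and leaving out any single library gave 8 or 9 called. At 6 months Ogn, Sparc, Thbs2 and Bgn fell and Dcn rose, 5 of 9 against 28.8% of all genes called and 13.1% called lower, with a median of -0.88 against 0.02 over all genes. That count was 3 without 6-month wild-type replicate 4 or Terc-/- replicate 1, 6 without wild-type replicate 2, and 2 (Dcn and Ogn) with only the 2 groups in the fit. The genotype differences at 6 and 1 months were compared directly: Mfap5, Dcn and Postn (2.21 ± 0.62, adjusted p = 0.0474) were higher at 6 months, 3 of 9 against 3.58% of all genes called and 2.79% called higher. That count was 7 without 6-month Terc-/- replicate 1, 6 without 1-month wild-type replicate 1, 5 without 6-month wild-type replicate 1 and 2 without 6-month wild-type replicate 2. The Postn value lost its call in several fits, with adjusted p of 0.00369 to 0.504 over the alternatives. Marker lists moved in the same comparisons. Of 10 tested stromal markers 7 were lower at 1 month, and at 6 months 5 were lower and 1 higher. Of 5 tested smooth-muscle and pericyte markers 4 and 5 were lower (medians -2.24 and -1.91), and their sum was 1863 to 2629 TPM in wild type against 323 to 705 TPM in Terc-/- at 1 month, and 2032 to 3256 against 310 to 1878 TPM at 6 months. Of 8 macrophage markers 5 were higher at each age, with 1 lower at 1 month (medians 0.55 and 0.71). Their part in the members' values was not tested. At 1 month, and in the comparison of the 6-month with the 1-month difference, the labelled difference and the difference in Xist cannot be told apart.

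**Figure D5:**
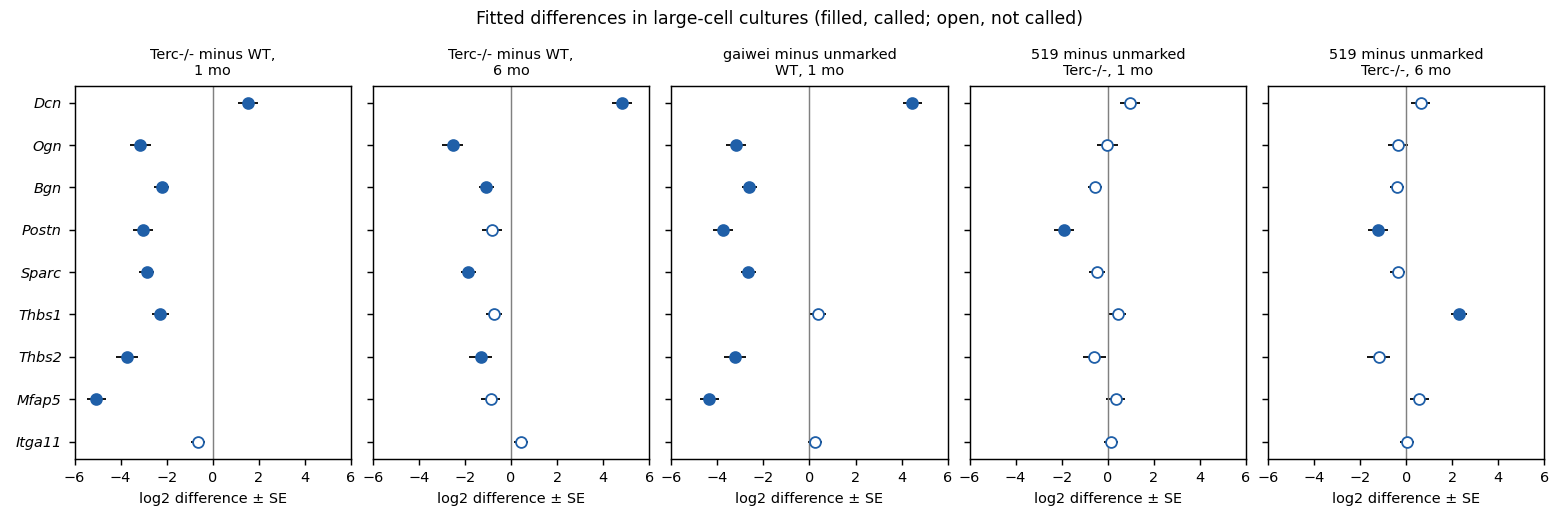
Fitted log2 differences ± standard error of the 9 tested genes in 5 comparisons of large-cell cultures, 3 libraries a group, filled where limma's adjusted p was under 0.05. Dcn lies to the right of 0 in both genotype panels and in the gaiwei panel, where Bgn, Ogn, Postn, Sparc and Thbs2 lie to the left.

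Between 1 and 6 months 5 of the 9 tested members rose in unmarked Terc-/- libraries and 7 in those with 519, while Ogn and Bgn passed the test in neither set. The 5 in unmarked libraries were Itga11, Thbs2 (2.17 ± 0.49, adjusted p = 0.0101), Dcn, Postn (1.61 ± 0.44, adjusted p = 0.0355) and Thbs1 (1.23 ± 0.35, adjusted p = 0.0474), against 3.98% of all genes called and 2.93% called higher. The count was 1 without 6-month replicate 4, 2 without 1-month replicate 1 or 3, and 3 without 6-month replicate 2, so that a single library decided much of it. The 7 in the 519 libraries were Thbs1, Postn (2.29 ± 0.44, adjusted p = 0.000624), Itga11, Thbs2 (1.55 ± 0.49, adjusted p = 0.0252), Dcn (1.43 ± 0.43, adjusted p = 0.0181), Mfap5 (1.32 ± 0.41, adjusted p = 0.0229) and Sparc (1.14 ± 0.34, adjusted p = 0.0162), against 23.9% of all genes called and 12% called higher. That count was 4 without 1-month replicate 1 or 6-month replicate 2. Without 6-month replicate 3, the library with the most Dcn, the Dcn value was 0.88 (adjusted p = 0.141), and its call was also lost without 1-month replicate 2 (adjusted p = 0.0686). The Thbs2 call was lost in 5 of the 6 fits that left out a library of these groups (adjusted p = 0.0527 to 0.0758), and that of Mfap5 in 3 (adjusted p = 0.0577 to 0.0823). The medians over the 9 were 1.23 and 1.43, against 0.00 and -0.01 over all genes. Of the stromal markers 4 and 5 of 10 tested were higher in the same comparisons, and none was lower.

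The libraries with an extra word in their titles were compared with unmarked libraries of the same label. The 2 words occur in 1 genotype each, and their differences were not tested against each other. In wild type, gaiwei libraries were lower in Mfap5 (-4.34 ± 0.41, adjusted p = 6.95e-09), Postn (-3.74 ± 0.44, adjusted p = 2.05e-07), Thbs2 (-3.24 ± 0.49, adjusted p = 8.88e-06), Ogn, Sparc (-2.65 ± 0.34, adjusted p = 5.88e-07) and Bgn (-2.61 ± 0.32, adjusted p = 3.31e-07), and higher in Dcn. These 7 of 9 stand against 46.5% of all genes called and 22.4% called lower, and were 7 without any single library. In Terc-/- the 519 libraries differed in 1 of 9 members at 1 month, Postn, against 33.6% of all genes, and in 2 of 9 at 6 months, Postn and Thbs1, against 28.2%. The first count was 2 without unmarked 1-month replicate 1. The second was 5 without unmarked 6-month replicate 1, and 1 without any other single library of those groups. Osteoclast markers were lower in 10, 9 and 9 of 10 in the 1-month 519, 6-month 519 and gaiwei comparisons, with Ctsk at -6.13 ± 0.27, -4.28 ± 0.27 and -5.56 ± 0.27. In the gaiwei comparison 7 of 10 stromal and 4 of 5 smooth-muscle markers were also lower, and 7 of 8 macrophage markers higher. In the 519 comparisons at 1 and 6 months 3 and 2 of 10 stromal markers and 1 of 5 smooth-muscle markers each were lower, beside 1907 and 1743 of all 12614 genes. Of 8 macrophage markers 5 and 2 were higher, with 1 lower at 6 months, beside 2330 and 1817 of all 12614 genes called higher. Their part in the members' values was not tested.

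Genes that work with the members were taken from whole lists of the same families and functions, and those named below are among the 4 of each list with the smallest p in the comparison. Their counts stand beside 15.5% of all genes called lower and 15.4% called higher in Terc-/- at 1 month, and 13.1% and 15.7% at 6 months. Of 15 further matrix proteoglycans, 4 were tested, and at 1 month all 4 fell in Terc-/-: the basement-membrane proteoglycan perlecan, Hspg2 (-2.01 ± 0.36, adjusted p = 0.00017), Podnl1 (-0.93 ± 0.24), versican, Vcan (-1.39 ± 0.41), and Tsku (-0.39 ± 0.12). At 6 months Podnl1 fell (-1.08 ± 0.24, adjusted p = 0.00191) and Tsku rose (0.34 ± 0.12, adjusted p = 0.0393). Of 10 tested matricellular genes, 4 fell at 1 month and none rose, namely the growth-factor-binding Ccn2 (-2.47 ± 0.29), Ccn4 (-2.94 ± 0.37) and Ccn1 (-2.07 ± 0.30) and tenascin C, Tnc (-1.89 ± 0.38). At 6 months 6 fell, Ccn1 (-1.52 ± 0.30) and Ccn2 (-1.22 ± 0.29) among them, and Tgfbi, a collagen-binding protein also made by macrophages, rose (1.21 ± 0.13, adjusted p = 5.46e-07). The medians of this list were -0.72 and -1.10, against 0.00 and 0.02 over all genes.

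Of 10 tested microfibril and elastic-fibre genes, companions of Mfap5, 8 fell and 1 rose in Terc-/- at 1 month, with fibrillin 1, Fbn1, at -3.56 ± 0.48 (adjusted p = 7.63e-06), Fbln2 at -2.41 ± 0.41 and Fbln5 at -1.48 ± 0.28. At 6 months 4 fell and none rose (Fbn1 -1.48 ± 0.48, adjusted p = 0.0238). Of 5 tested collagen receptors other than Itga11, 4 fell at 1 month, with the integrin partner of Itga11, Itgb1, at -1.26 ± 0.17 (adjusted p = 9.31e-06) and the collagen-binding kinase Ddr2 at -1.93 ± 0.42. At 6 months Itgb1 alone fell (-0.55 ± 0.17, adjusted p = 0.0207). Of 9 tested receptors of the members' proteins 2 rose at 1 month and 3 at 6 months, and none fell. Macrophage markers, of which 5 of 8 were higher at each age, moved in the same sense, and their part was not tested. Cd36, a receptor of thrombospondin 1, rose by 0.95 ± 0.23 at 1 month and 1.24 ± 0.23 at 6 months (adjusted p = 0.00338 and 0.000379), and the scavenger receptor Lrp1 by 0.82 ± 0.14 and 0.51 ± 0.14. Tlr2, which binds biglycan, rose by 1.31 ± 0.13 at 6 months (adjusted p = 8.36e-08).

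The 18 genes that build glycosaminoglycan chains were all tested and did not move as a block. At 1 month 4 rose and 4 fell in Terc-/-, with a median of 0.11, and at 6 months 7 rose and 1 fell, with a median of 0.27. Xylt2, a xylosyltransferase that starts the chains on the core protein, rose at both ages (1.63 ± 0.15 and 2.17 ± 0.15, adjusted p = 4.53e-08 and 6.64e-10), as did the chondroitin polymerising factor Chpf2 (0.70 ± 0.08 and 1.07 ± 0.08). Csgalnact1, which begins chondroitin chains, fell at 1 month (-2.42 ± 0.37, adjusted p = 3.2e-05). Between 6 and 20 months in wild-type large-cell cultures 3 of 18 rose and none fell, beside 12.7% of all genes called higher (Chst14 0.46 ± 0.10, Csgalnact2 0.99 ± 0.22 and Dse 0.50 ± 0.16).

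Each member was set beside the genes whose levels ran most like its own over the 30 libraries, among 9276 other genes whose mean reached 5 TPM, by Pearson's r of log2 values, given as a description since libraries of a group are alike. Thbs2 ran closest to the fibrillar collagens Col1a2 (r = 0.98), Col1a1 (0.97) and Col5a1 (0.97), and Postn to Sorcs2 (0.97), Col1a1 (0.97) and Cthrc1 (0.96). Bgn and Sparc shared 2 of their 3 nearest genes, Fstl1 (0.99 for each) and the collagen chaperone Serpinh1 (0.99 for each), with Rcn1 (0.98) and Sdc2 (0.98) as the others. Ogn ran closest to Medag (0.97), Pdia5 (0.95) and Col3a1 (0.93). Dcn had another set, Col18a1, Il1rn and Wfdc17 (0.95 for each), of which the interleukin 1 receptor antagonist Il1rn is made by macrophages, and Lum ran closest to Mmp13 (0.90), Flrt3 (0.90) and Il1f9 (0.87). Thbs1 ran closest to Cd164 (0.93), Il13ra1 (0.92) and Gopc (0.90), Mfap5 to Crabp2 (0.91), Hspb8 (0.90) and Rab15 (0.86), and Itga11 to Dkk3 (0.90), Adamts4 (0.89) and Adra2a (0.89).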

How the data were processed

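RNA was sequenced from 30 libraries of mouse osteoclast cultures. The values, as deposited by the authors in 5 tables of 45706 genes, were read as TPM because each library summed to 1000000 and its lowest values shared no common step. The column headers name no unit. HTSeq and mm10 are named without versions in the submitters' processing notes, and no aligner is named (not given in the sources used here). Columns were matched to samples by title, and 45143 gene identifiers to GENCODE M21 (GRCm38). No 2 libraries were identical. Read depth is unknown, so no counting interval is given.

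Libraries were scaled by trimmed means of log ratios, dropping 30% of ratios and 5% of levels from either tail. Values were then used as log2(scaled TPM + 1). The 12614 genes whose mean reached 1 TPM were fitted with limma 3.58.1 in R 4.3.3, with 10 group means, trend and robust settings, and Benjamini-Hochberg adjustment over all genes in each comparison at 0.05. A called gene is one past that threshold. Other tools were Python 3.11.15, pandas 2.3.3, numpy 2.4.6 and matplotlib 3.10.9. The code was tested on simulated data. Sequences are RefSeq's.

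The members, the 6 companion lists and the 9 marker lists were chosen with earlier results of these data known. Named genes are the 10 members, up to 4 genes of a list with the smallest p in a described comparison, and for each member the 3 genes most correlated with it (mean of at least 5 TPM, predicted genes, clones and pseudogenes left out). Alternatives were unscaled TPM, a pseudocount of 0.1, scaling by median ratios, dropping the low-value filter, a block for replicate number, only the compared groups in the fit, and leaving out each library. Leaving out the second large-cell wild-type replicate at 6 months from comparisons without that group was added after seeing the data. Markers of endothelium, adipocytes, chondrocytes, neutrophils and B cells had 2, 1, 1, 2 and 0 genes tested.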

Additional observations from a re-analysis of the deposited data

Results flagged for a closer look

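The fitted change from 2 days to large cells was higher at 20 than at 6 months for Itga11 (4.77 ± 0.43), Thbs2 (4.30 ± 0.70), Ogn (3.34 ± 0.64), Postn (3.01 ± 0.62), Sparc (2.29 ± 0.47), Thbs1 (2.27 ± 0.50), Bgn (1.96 ± 0.45) and Mfap5 (1.94 ± 0.58), each on the log2 scale as the 20-month change minus the 6-month change. For Itga11, Thbs2, Sparc, Thbs1, Bgn and Mfap5 the fitted change was below 0 at 6 months and above 0 at 20 months. Only Itga11 and Bgn of these were called at both ages, and the 6-month Bgn call was lost in 5 fits that left out a library. Mfap5 was called at neither age, and Thbs1 was 0.23 ± 0.35 at 20 months. This comparison was known when the genes were chosen, so these values are a description and no test is read from them.

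The difference between Terc-/- and wild type differed between 6 and 1 months, by the interaction term in limma, for Mfap5 (4.17 ± 0.58, adjusted p = 9.83e-05), Dcn (3.28 ± 0.60, adjusted p = 0.00185) and Postn (2.21 ± 0.62, adjusted p = 0.0474). The Mfap5 difference was -5.05 ± 0.41 at 1 month and -0.88 ± 0.41 at 6 months, that of Postn -3.04 ± 0.44 and -0.83 ± 0.44, and that of Dcn 1.54 ± 0.43 and 4.82 ± 0.43. Adjusted p for Postn ran from 0.00369 to 0.504 over the alternatives. The unmarked 1-month wild type, the group with high Xist, enters each of these terms, so the difference in Xist and the labelled one cannot be told apart.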

How the results depend on the processing

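Over the 15 comparisons 77 member differences were called. Of their 1039 values under the alternatives, 917 stayed called in the same direction, 122 were no longer called and 0 reversed. Counts of members called stayed within 1.5 times under median-ratio scaling and a pseudocount of 0.1. With TPM as deposited they went from 1 to 3 (519 against unmarked Terc-/-, 1 month), 8 to 5 (2-day cultures by age), 5 to 3 (unmarked Terc-/- by age) and 3 to 6 (2 days to large cells, 6 months). Without the low-value filter they went from 8 to 5 (2-day cultures by age), 2 to 1 (519, 6 months) and 5 to 3 (unmarked Terc-/- by age). With only the compared groups they went from 1 to 3 (519, 1 month), 5 to 2 (genotype, 6 months), 5 to 2 (unmarked Terc-/- by age), 6 to 3 (wild type, 20 against 6 months) and 3 to 0 by limma (wild type, 6 against 1 month), with 3 at an unadjusted p under 0.05. The 17 pairs of groups with shared numbers were checked for pairing, and none paired (correlations of deviations -0.60 to 0.33). Each pair of groups shares only 2 or 3 numbers, so the check cannot decide whether samples share an animal or batch. With the replicate block the counts went from 2 to 1 (519, 6 months), 3 to 5 (genotype by age) and 3 to 6 (2 days to large cells, 6 months), and the other 12 stayed within 1.5 times.

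Leaving out 1 library gave 1 to 2 (519, 1 month), 4 to 8 (2-day cultures by age), 1 to 5 (519, 6 months), 2 to 7 (genotype by age), 3 to 7 (genotype, 6 months), 4 to 7 (519 Terc-/- by age), 1 to 7 (unmarked Terc-/- by age), 3 to 7 (wild type, 20 against 6 months) and 1 to 4 (wild type, 6 against 1 month). TPM as deposited moved the median difference of all genes by over 0.1 (log2) in 12 comparisons, most in gaiwei (-0.49), 519 at 1 month (-0.40) and 2 days to large cells at 6 months (-0.34). The share of called genes that were higher went there from 51.9 to 16.4%, 55.0 to 15.4% and 49.5 to 23.4%. It went from 51.0 to 20.5% for 519 at 6 months, 46.2 to 71.2% for wild type at 20 against 6 months, 50.4 to 65.6% for 519 Terc-/- by age, 49.5 to 63.2% for the change to large cells by age, 41.5 to 53.7% for wild type at 20 against 1 month and 51.6 to 39.8% for 2 days to large cells at 20 months. TPM without depth gives no limit of detection, so Ogn and Lum near 0 are listed values.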
